A study of Saccharomyces cerevisiae with 4 samples.

Results

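The 10 genes described here encode enzymes that build ergosterol, the main sterol of yeast membranes. They were taken by their systematic names from the deposited table of 6484 features, and all 10 were present: HMG1 (YML075C), HMG2 (YLR450W), ERG1 (YGR175C), ERG2 (YMR202W), ERG3 (YLR056W), ERG5 (YMR015C), ERG6 (YML008C), ERG11 (YHR007C), ERG24 (YNL280C) and ERG25 (YGR060W). RNA of the budding yeast Saccharomyces cerevisiae had been sequenced in 2 strains, with 2 libraries per strain that the series calls biological replicates. The first carries the genotype BGL-6Kl; ΔYGP1 and is called the deletion strain below. The second is its parent BGL-6Kl, so whatever modification BGL-6Kl carries is shared by both. Neither strain was treated, and both were cultured in the rich glucose medium YPD at 30 °C with shaking at 200 rpm and harvested after 48 h. That time was chosen in the series as the first at which a cell-associated activity named BGL clearly differed between the strains. The labels do not say whether each strain is a single clone.

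Ergosterol is made from acetyl-CoA. The mevalonate part of the route, in which HMG-CoA reductase is a main point of control, supplies isoprenoid units that are joined to squalene. The sterol-specific part converts squalene to lanosterol and then to ergosterol. Several of its enzymes use molecular oxygen, and ERG11 and ERG5 encode haem-containing cytochromes P450. Sterol genes are activated by the related transcription factors Upc2 and Ecm22 when sterols are scarce, and enzymes of the route are the targets of azole, allylamine and morpholine antifungals.

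Of the 10 transcripts, 4 were lower in the deletion strain and 0 were higher at an adjusted p below 0.05 in the authors' deposited table. The 4 were ERG1, ERG2, ERG11 and ERG25, at 43.7% to 57.5% of their parental level. Over all 6484 features, 10.3% were called lower and 9.65% higher in that table, 20% in all. At an unadjusted p below 0.05, 6 of the 10 were lower and 0 higher, ERG3 and ERG5 being the additional ones. The share of all features at that unadjusted threshold was not counted in that table, so the 6 cannot be set against it. A limma fit to the libraries recovered from the strain means called 6 of the 10 lower, the same 4 with ERG3 and ERG5, and 0 higher. At an unadjusted p below 0.05 that fit had 6 of the 10 lower and 1 higher. In that fit 14.9% of 6115 features were called lower and 13.9% higher, 28.7% in all. Of those 6115 features 2507 had an unadjusted p below 0.05, in either direction, so passing unadjusted was common in that fit. Without deletion library A, or without deletion library B, that fit called 0 of the 10, with lowest adjusted p of 0.0606 and 0.0643 over all features. It then gave log2 fold changes of -1.55 for ERG1, -1.56 for ERG2, -1.04 for ERG11 and -0.77 for ERG25 without library A. Without library B it gave -0.91 for ERG1, -0.82 for ERG2, -1.02 for ERG11 and -0.82 for ERG25. Without parental library B it called ERG1 and ERG2, but not ERG11 (adjusted p = 0.0843) and ERG25 (adjusted p = 0.154). The median log2 fold change of the 10 was -0.66, against 0.02 over all features with a mean above 0 in both strains.

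The label of the deletion strain was checked on YGP1 (YNL160W), a secreted glycoprotein gene, whose transcript was lower there but not absent. The transcript kept 29.1% of its parental level. These values alone therefore do not show the gene to be deleted, and the name deletion strain follows the label. The table gives a mean normalised read count per strain, in which the reads of each library are divided by a size factor that sets libraries of different depth on 1 scale. Those of YGP1 were 18171 in the deletion strain and 62470 in the parent (log2 fold change -1.78, adjusted p = 2.88e-08 by the authors' deposited table). Whole reads per library were recovered from these means, uniquely for all 10 enzymes but not for YGP1, where 3 pairs match each mean. They summed to 10154385 and 7419301 in deletion libraries A and B, over the 6197 features recovered uniquely in that strain. For the parent, library A gave 14987529 and library B 12550102, over its own 6370 such features. The sums leave out different features in each strain, so they do not compare the depth of the strains. The size factors were 1.125 and 0.797 for deletion A and B, and 1.155 and 0.964 for parental A and B. Libraries A and B are ordered by their size factor and do not carry the replicate numbers of the labels. Among 5266 features that had 50 or more reads in every library, values differed by a median absolute log2 of 0.28 between the deletion libraries, 0.18 between the parental libraries and 0.47 between the strains. Parental library A lay nearer to the deletion libraries (0.46 to each) than parental library B (0.54 to each). In a bulk culture, fewer cells that express a gene and less RNA per cell cannot be told apart.

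The stretches upstream of 5 of the genes are shown because ERG1, ERG2, ERG11 and ERG25 were the transcripts called lower and ERG3 holds the most matches to the motifs searched. Each is 300 bases long, starts 400 bases before the start codon and is read in the gene's direction from the RefSeq R64 reference of strain S288C; the build behind the authors' counts is not given in the sources used here, and the coordinates are those of R64 only. Capitals mark matches on either strand to TCGTATA, the core of the sterol element bound by Upc2 and Ecm22, and to TCGTTTAG, a related element of genes induced without oxygen.
ERG1, chrVII:848524-848823, minus strand: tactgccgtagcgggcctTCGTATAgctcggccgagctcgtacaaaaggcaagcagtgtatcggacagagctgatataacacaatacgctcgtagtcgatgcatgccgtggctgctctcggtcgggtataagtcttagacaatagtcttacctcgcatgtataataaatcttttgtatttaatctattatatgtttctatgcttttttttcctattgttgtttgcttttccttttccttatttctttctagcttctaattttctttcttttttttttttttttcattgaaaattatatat
ERG2, chrXIII:667137-667436, plus strand: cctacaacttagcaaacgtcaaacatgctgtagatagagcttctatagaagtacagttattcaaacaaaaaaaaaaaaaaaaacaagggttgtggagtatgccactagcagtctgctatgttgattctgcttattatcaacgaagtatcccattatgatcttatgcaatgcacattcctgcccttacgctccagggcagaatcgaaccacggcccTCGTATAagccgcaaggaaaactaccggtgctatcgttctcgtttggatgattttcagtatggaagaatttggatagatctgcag
ERG3, chrXII:253461-253760, plus strand: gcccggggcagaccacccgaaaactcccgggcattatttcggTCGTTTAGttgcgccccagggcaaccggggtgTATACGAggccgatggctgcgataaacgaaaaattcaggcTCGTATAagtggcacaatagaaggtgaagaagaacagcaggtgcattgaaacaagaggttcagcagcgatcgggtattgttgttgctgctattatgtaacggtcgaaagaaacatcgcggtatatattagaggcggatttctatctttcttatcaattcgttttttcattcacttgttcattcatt
ERG11, chrVIII:121784-122083, minus strand: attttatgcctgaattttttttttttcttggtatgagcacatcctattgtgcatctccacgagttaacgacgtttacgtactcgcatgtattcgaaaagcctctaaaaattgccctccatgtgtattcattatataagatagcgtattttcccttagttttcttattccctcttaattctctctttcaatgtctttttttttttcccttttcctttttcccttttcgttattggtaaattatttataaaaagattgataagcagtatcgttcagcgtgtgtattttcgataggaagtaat
ERG25, chrVII:610164-610463, plus strand: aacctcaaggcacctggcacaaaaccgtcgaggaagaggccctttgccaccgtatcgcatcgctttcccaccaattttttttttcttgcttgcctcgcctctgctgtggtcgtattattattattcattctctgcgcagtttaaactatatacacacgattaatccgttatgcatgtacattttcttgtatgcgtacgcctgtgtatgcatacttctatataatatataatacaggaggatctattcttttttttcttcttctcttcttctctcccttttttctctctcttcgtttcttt

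TCGTATA lay in this window of 3 of the 10 enzyme genes, against 4.58% of 6001 nuclear protein-coding genes of R64. It was searched as a known element of sterol genes, so these shares are descriptive and were given no test. TCGTATA began 382 bases before the start codon in ERG1 and 185 bases before it in ERG2. ERG3 held it on each strand, beginning 326 and 286 bases before the start codon. TCGTTTAG lay in 2 of the 10, ERG3 and ERG24, against 1.23% of all windows. Neither motif was found in the windows of ERG11 and ERG25, which says only that these letters are not in this stretch. The motif of the haem-dependent activator Hap1 (CGG, 3 free bases, TA, 1 free base, CGG) lay in 0 of the 10 windows and in 0.217% of all, and ATTGTT, the core of the motif of the hypoxic repressor Rox1, in 5 of the 10 and in 31.9% of all. No match to one motif overlapped a match to another in these 10 windows. Among the 12 other enzymes of the route TCGTATA lay in 2, ERG13 and ERG8, with log2 fold changes of 0.04 and 0.62 that did not pass in the authors' deposited table. TCGTTTAG lay in 4 of the 12, of which ERG20 was lower, ERG7 and ERG4 were higher and ERG9 did not pass in the authors' deposited table. TCGTTTAG thus lay upstream of genes called in both directions.

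**Figure D1:**
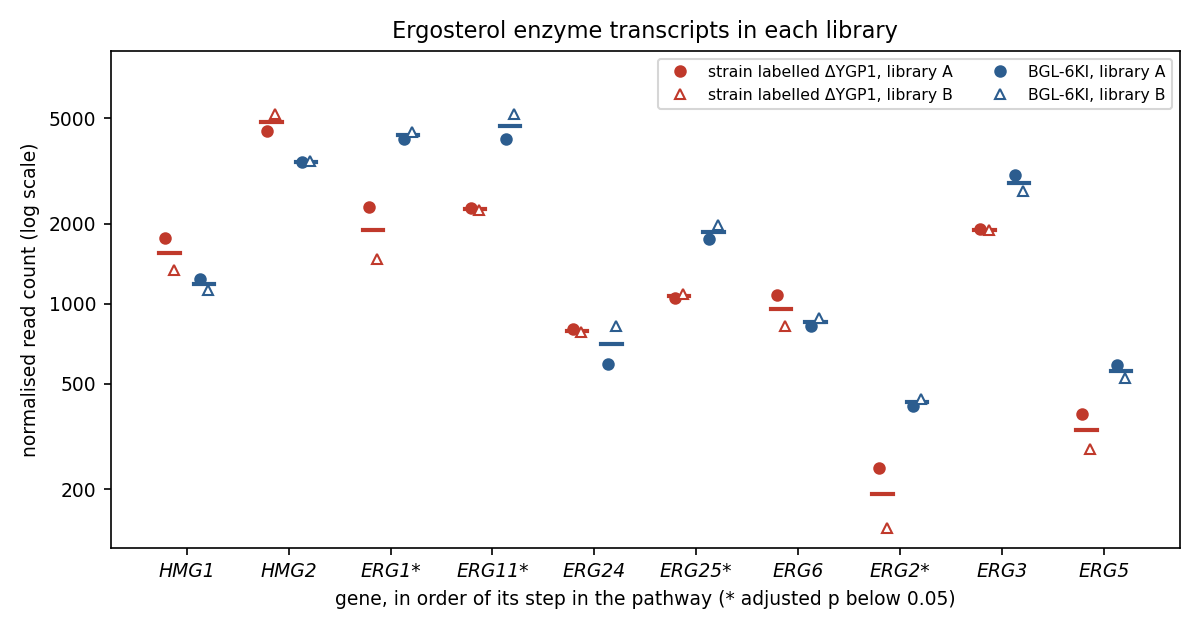
Normalised read count (log scale) of the 10 enzyme genes in each library, in the order of their steps, with deletion libraries in red left of parental libraries in blue; circles are libraries A, triangles libraries B and bars the strain means. ERG1, ERG11, ERG25, ERG2, ERG3 and ERG5 have both deletion libraries below both parental libraries, and asterisks mark an adjusted p below 0.05 in the authors' deposited table.

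The first step among the 10 belongs to the paralogs HMG1 and HMG2, the HMG-CoA reductases that make mevalonate. HMG2 had normalised read counts of 4488 and 5207 in the deletion libraries, against 3414 and 3458 in the parental libraries. HMG1 had 1766 and 1343 in the deletion libraries, against 1243 and 1127 in the parental libraries. Both deletion libraries lay above both parental libraries for each gene, but neither gene passed. The log2 fold change of HMG2 was 0.50 (adjusted p = 0.232) and that of HMG1 0.39 (adjusted p = 0.333), both in the authors' deposited table. With libraries scaled by their recovered totals, which moved the median of all features to 0.13 on the log2 scale, limma called HMG2 higher at 0.62 (adjusted p = 0.0415). Separation of the libraries in this direction was common, at 33.2% of the 6183 features recovered in both strains. HMG2 had the more abundant transcript per kilobase of coding sequence, at 1545 against 491 for HMG1 in the deletion strain and at 1095 against 374 in the parent. The ratio of HMG2 to HMG1 read counts was 2.54 and 3.88 in the deletion libraries and 2.75 and 3.07 in the parental libraries, so it overlapped between the strains. The coding sequences of both genes are 68.1% identical over aligned bases and share no identical run longer than 23 bases in R64; how reads common to both were assigned is not given in the sources used here.

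ERG1 encodes squalene epoxidase, which uses oxygen to commit squalene to sterols and is the target of allylamines. Its normalised read counts were 2308 and 1472 in the deletion libraries, against 4197 and 4459 in the parental libraries. Both deletion libraries lay well below the parental ones, but they differed more from each other than the parental pair did. ERG1 fell to 43.7% of the parental mean (log2 fold change -1.20, adjusted p = 0.000944 by the authors' deposited table). It had the largest fall of the 10, and the limma estimate on the log2(value + 1) scale was -1.23 ± 0.24 (SE).

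ERG11 encodes lanosterol 14-alpha-demethylase, the cytochrome P450 inhibited by azoles. Its counts were 2301 and 2260 in the deletion libraries, against 4189 and 5188 in the parental libraries. Here the deletion libraries were nearly equal and the parental ones spread. ERG11 was 2.06-fold lower (log2 fold change -1.04, adjusted p = 0.00332 by the authors' deposited table), with a limma estimate of -1.03 ± 0.21 (SE). Without the intensity trend ERG11 was the only one of the 10 that limma called.

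ERG25 encodes C-4 methyl sterol oxidase, which with ERG26 and ERG27 removes the C-4 methyl groups. It had 1054 and 1091 in the deletion libraries, against 1756 and 1977 in the parental libraries. The libraries of each strain lay close together, and the fall to 57.5% of the parental mean was the smallest of the 4 called (log2 fold change -0.80, adjusted p = 0.0338 by the authors' deposited table). This call had the highest adjusted p of the 4 and was lost at a threshold of 0.01, as was that of ERG2.

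ERG2 encodes C-8 sterol isomerase, which does not use oxygen. It was the least abundant of the 10 by read count, with 239 and 143 in the deletion libraries, against 410 and 438 in the parental libraries. The lowest value rests on 114 reads, in deletion library B. ERG2 was 2.22-fold lower (log2 fold change -1.15, adjusted p = 0.0121 by the authors' deposited table). The deletion libraries stood apart from each other for this gene as they did for ERG1, with library A above library B.

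ERG3, the C-5 sterol desaturase, and ERG5, the C-22 desaturase, act late in the route and use oxygen. ERG3 had 1910 and 1898 in the deletion libraries, against 3067 and 2657 in the parental libraries. ERG5 had 384 and 284 in the deletion libraries, against 588 and 526 in the parental libraries. Neither pair of strains overlapped, yet neither gene passed in the authors' deposited table. There the log2 fold change was -0.59 for ERG3 (adjusted p = 0.122) and -0.74 for ERG5 (adjusted p = 0.103). The limma fit called both, at adjusted p of 0.0498 and 0.0393, but not under all of its settings.

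ERG24, the C-14 sterol reductase on which morpholines act, and ERG6, the C-24 sterol methyltransferase, showed no separation between the strains. ERG24 had 802 and 782 in the deletion libraries, against 590 and 822 in the parental libraries. ERG6 had 1078 and 825 in the deletion libraries, against 824 and 885 in the parental libraries. The strains overlapped for both genes, and their log2 fold changes of 0.17 and 0.15 did not pass (adjusted p = 0.740 and 0.730 by the authors' deposited table). Each changed sign when 1 library was left out of the limma fit, to -0.05 for ERG24 without parental library A and to -0.05 for ERG6 without deletion library A.

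Set side by side, the 5 oxygen-using enzymes ERG1, ERG11, ERG25, ERG3 and ERG5 had log2 fold changes between -1.20 and -0.59, and 3 of them were called lower. The 5 that do not use oxygen had values between -1.15 and 0.50, and only ERG2 was called lower. Over all 6484 features 10.3% were called lower in the authors' deposited table. In all, 6 of the 10 genes had both deletion libraries below both parental libraries, against 33% of the features recovered in both strains, and 2 had both above, against 33.2%. Libraries of the strains did not overlap for 66.2% of those features. This grouping was made with the values known and was given no test. Among the 12 other enzymes none is counted here as using oxygen.

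**Figure D2:**
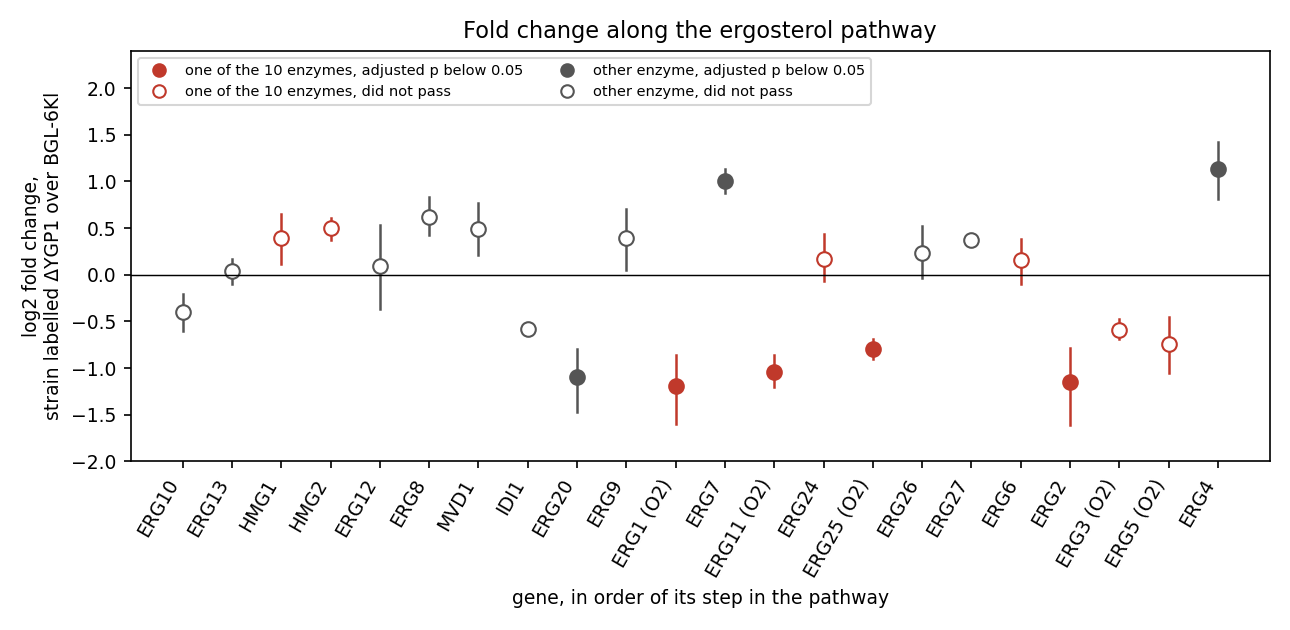
Log2 fold change, deletion strain over parent, in the authors' deposited table for 22 enzymes in pathway order; lines span the log2 ratios of the 4 pairs of a deletion and a parental library, and filled points passed at an adjusted p below 0.05. The 10 enzymes described are in red, the 12 others in grey, and O2 marks the 5 that use oxygen; points lie between -1.20 for ERG1 and 1.14 for ERG4.

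The order of the 10 by read count per kilobase also differed between the strains. In the deletion strain ERG3 came first at 1734, followed by HMG2 at 1545, ERG11 at 1432, ERG1 at 1268 and ERG25 at 1153. In the parent ERG11 came first at 2943, followed by ERG1 at 2903, ERG3 at 2607, ERG25 at 2007 and HMG2 at 1095. In the deletion strain the libraries of HMG2 and ERG11, of ERG11 and ERG1 and of ERG1 and ERG25 overlapped, so those neighbours cannot be ordered. HMG2 and ERG1, which are not neighbours, overlapped there too. In the parent the same holds for ERG11 and ERG1 and for ERG2 and ERG24. ERG3 also overlapped ERG11 in the parent, at 2794 and 2420 against 2629 and 3257 in parental libraries A and B. The order of ERG3 and ERG11 in the parent is therefore not resolved. The rest of the order ran from ERG6 to ERG5 in both strains, at 826 to 206 in the deletion strain and at 742 to 344 in the parent. ERG5 was the lowest in each, with libraries that overlapped those of ERG2 in the deletion strain and those of HMG1 in the parent.

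**Figure D3:**
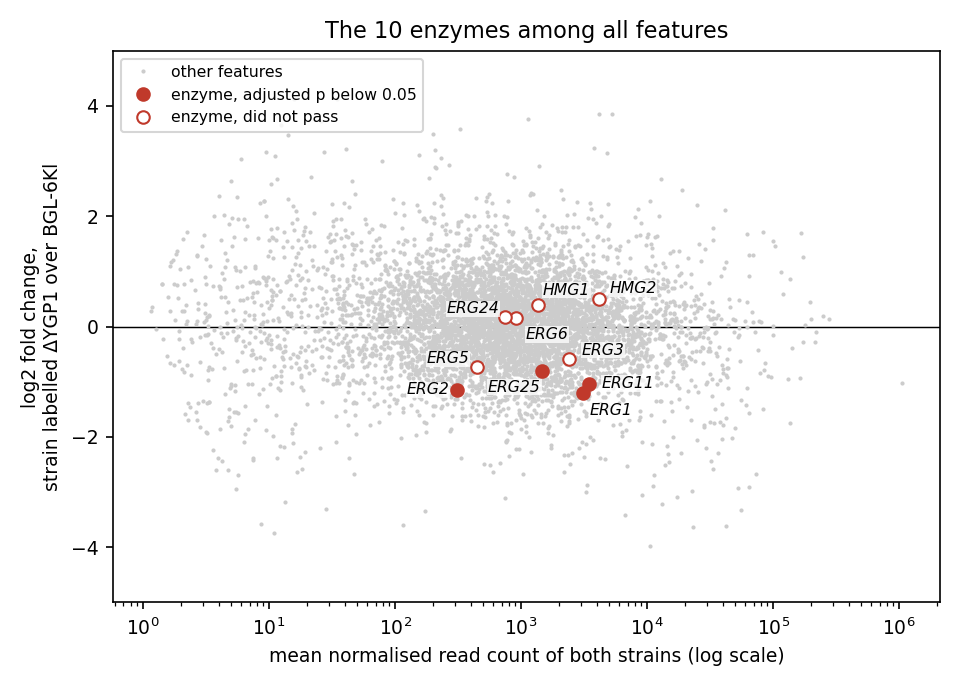
Log2 fold change, deletion strain over parent, against the mean normalised read count of both strains (log scale) for the 6318 features whose mean reached 1 in each strain; the 10 enzymes are in red, filled where the adjusted p was below 0.05. The 4 filled points lie between -1.20 and -0.80, within the cloud of other features in grey, and 1 feature lies outside the axis.

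Of the other 12 enzymes 1 was lower, 2 were higher and 9 did not pass by the authors' deposited table, where 10.3% of all features were lower and 9.65% higher. Their median log2 fold change was 0.30. ERG20, the farnesyl diphosphate synthase of the isoprenoid part, fell to 46.7% of the parental level (1606 and 1025 in the deletion libraries, against 2849 and 2788 in the parental libraries, adjusted p = 0.00312 by the authors' deposited table). ERG7, the lanosterol synthase that acts between ERG1 and ERG11, was higher, with strain means of 1855 in the deletion strain, against 928 in BGL-6Kl (1923 and 1787 in the deletion libraries, against 879 and 977 in the parental libraries, adjusted p = 0.00488 by the authors' deposited table). ERG4, the sterol reductase of the last step, was 2.20-fold higher (2180 and 1539 in the deletion libraries, against 878 and 812 in the parental libraries, adjusted p = 0.00768 by the authors' deposited table). Direct neighbours in the route thus passed in opposite directions. The list of other sterol-specific genes also holds ERG28 and ERG29, which are not counted among the 12 enzymes. All 7 genes of that list had a positive log2 fold change, from 0.24 to 1.18, but only ERG7 and ERG4 passed. The largest of these values belonged to ERG29, which did not pass (1185 and 2151 in the deletion libraries, against 721 and 753 in the parental libraries, adjusted p = 0.193 by the authors' deposited table). The limma fit called ERG29 higher (adjusted p = 0.0126). Of the 7 other mevalonate and isoprenoid genes 1 was lower and 0 higher (1 higher at an unadjusted p below 0.05), with ERG8 the highest of those that did not pass at 0.62 and IDI1 the lowest at -0.58. The limma fit called ERG8 higher and IDI1 lower, both close to the threshold (adjusted p = 0.0499 and 0.0484).

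Among the proteins that serve the P450 enzymes, DAP1, a haem-binding protein that assists Erg11, was 2.05-fold higher (3184 and 3336 in the deletion libraries, against 1809 and 1372 in the parental libraries, adjusted p = 0.00403 by the authors' deposited table). NCP1, the P450 reductase, and CYB5, cytochrome b5, did not pass (log2 fold change 0.09 and -0.47 in that table). ERG11 and its helper DAP1 therefore passed in opposite directions.

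Of 7 transcription factors that act on sterol genes 2 were lower and 0 higher in the authors' deposited table. Over all features 10.3% were lower and 9.65% higher there. At an unadjusted p below 0.05, 3 of the 7 were lower and 0 higher, MOT3 being the additional one. ROX1, the repressor of hypoxic genes, was 3.43-fold lower (2909 and 1921 in the deletion libraries, against 7963 and 8592 in the parental libraries, adjusted p = 1.22e-07 by the authors' deposited table). SUT1, which promotes sterol uptake, was 4.64-fold lower (323 and 321 in the deletion libraries, against 1124 and 1864 in the parental libraries, adjusted p = 0.00533 by the authors' deposited table). These were the largest falls among the listed sterol-related genes. MOT3, HAP1 and SUT2 did not pass, at log2 fold changes of -0.69, -0.52 and 0.52 (adjusted p = 0.140, 0.204 and 0.584 by the authors' deposited table). The activators UPC2 and ECM22 did not pass, at log2 fold changes of 0.33 and 0.93 (adjusted p = 0.491 and 0.238 by the authors' deposited table). For ECM22 both deletion libraries lay above both parental ones (1990 and 3377, against 1267 and 1556), and limma called it higher at an adjusted p of 0.0290. Of 5 genes that act on the stability of HMG-CoA reductase 0 passed by the authors' deposited table in either direction, where 20% of all features passed. At an unadjusted p below 0.05 it was also 0, with SPF1 the farthest from 0 at a log2 fold change of 0.62.

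Genes that store or import sterols changed upward where they passed. Of 7 genes for sterol esters and acetates 2 were higher and 0 lower (0 lower at an unadjusted p below 0.05) in the authors' deposited table. There 9.65% of all features were higher and 10.3% lower. ARE1, a sterol acyltransferase, was 3.05-fold higher (1897 and 2204 in the deletion libraries, against 697 and 647 in the parental libraries, adjusted p = 3.47e-06 by the authors' deposited table). YEH2, a steryl ester hydrolase, was 2.45-fold higher (adjusted p = 0.00072 by the authors' deposited table), so an enzyme that makes sterol esters and one that breaks them rose together. ATF2, an acetyltransferase, did not pass at a log2 fold change of 0.98 (adjusted p = 0.179 by the authors' deposited table). PDR11, a sterol importer of the plasma membrane, was 2.51-fold higher (1258 and 1323 in the deletion libraries, against 521 and 506 in the parental libraries, adjusted p = 0.000246 by the authors' deposited table). Its relative AUS1 did not pass (log2 fold change -0.06 by the authors' deposited table), and its deletion libraries of 329 and 1022 lay on either side of the parental ones at 592 and 812.

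Of 14 sterol carrier genes 2 were higher and 1 lower by the authors' deposited table, a share near the 20% of all features called in either direction. SIP3 was 2.36-fold and NCR1 1.69-fold higher, and KES1, an oxysterol-binding protein homologue, fell to 53.2% of the parental level (adjusted p = 0.00115, 0.04 and 0.0115 by the authors' deposited table). LAM5 had the largest value of the 11 that did not pass there, at 0.58. Of 7 genes on branches from farnesyl diphosphate 1 was lower and 1 higher in that table. RER2, which makes dolichol precursors, was 1.90-fold lower, and RAM1, a subunit of protein farnesyltransferase, 1.93-fold higher (adjusted p = 0.00663 and 0.0159 by the authors' deposited table). BTS1, which makes geranylgeranyl diphosphate, did not pass at -0.64 (adjusted p = 0.122 by the authors' deposited table). The 2 branch genes that passed did so in opposite directions.

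Of 8 oxygen and haem responsive genes measured, 3 were higher and 0 lower by the authors' deposited table (0 lower at an unadjusted p below 0.05). Over all features 9.65% were higher and 10.3% lower in that table. HYP2, the other gene of that list, was not found there by its systematic name. HEM13, a haem synthesis enzyme repressed through Rox1, was 2.38-fold higher (898 and 665 in the deletion libraries, against 371 and 285 in the parental libraries, adjusted p = 0.0018 by the authors' deposited table). COX5B, a hypoxic subunit of cytochrome c oxidase, was 2.04-fold and CYC7, the minor isoform of cytochrome c, 4.03-fold higher (adjusted p = 0.00386 and 6.67e-10 by the authors' deposited table). AAC3, a hypoxic ADP/ATP carrier, had the largest fold change of those that did not pass (50 and 43 in the deletion libraries, against 14 and 18 in the parental libraries, adjusted p = 0.102 by the authors' deposited table), and limma called it higher (adjusted p = 0.0403). ANB1, CYC1, OLE1 and COX5A also did not pass, at log2 fold changes of 0.55, 0.29, 0.12 and -0.20 in the authors' deposited table. In the same libraries the oxygen-using sterol enzymes ERG1, ERG11 and ERG25 were lower. The part of oxygen supply in the sterol values was not tested, since the labels give no measure of it.

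**Figure D4:**
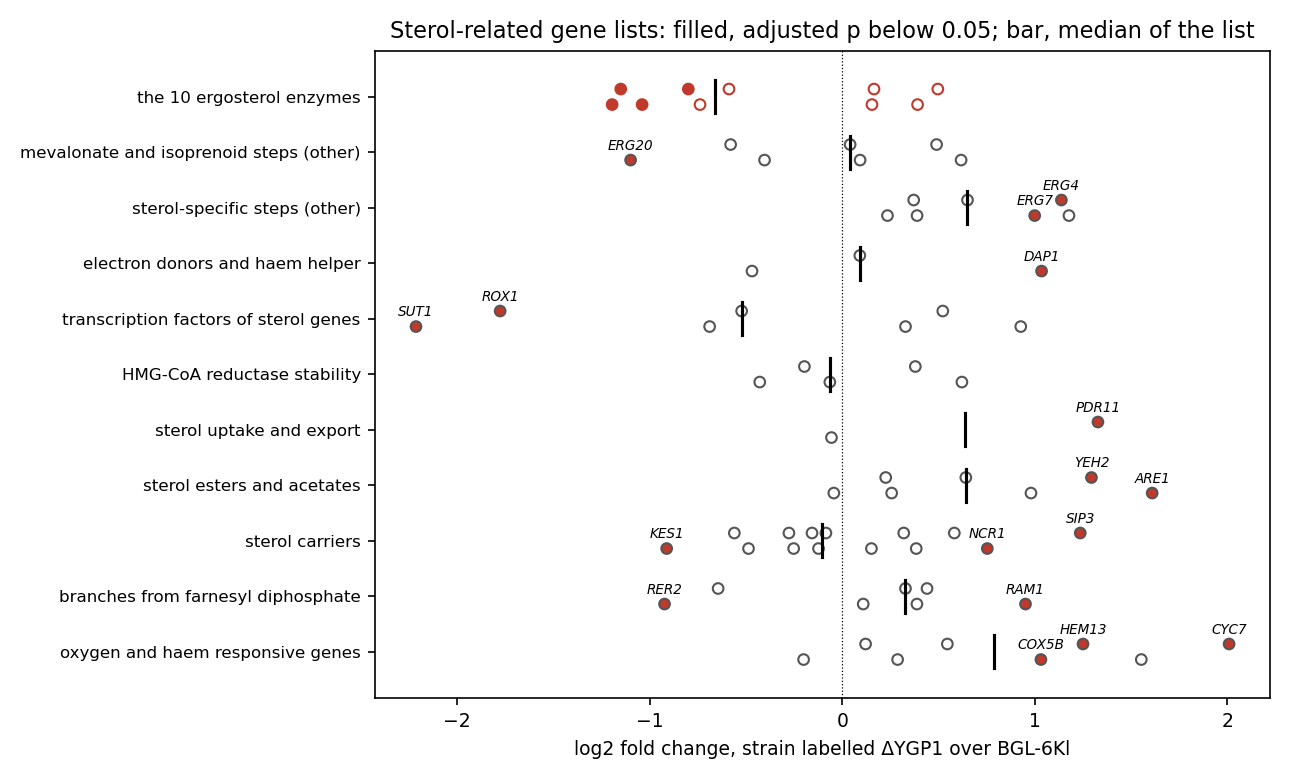
Log2 fold change, deletion strain over parent, in the authors' deposited table for the 10 enzymes and 10 other lists of sterol-related genes, 1 point per gene, with points staggered in height for legibility; filled points passed at an adjusted p below 0.05 and are named outside the first row, and bars mark each list's median. The medians run from -0.66 for the 10 enzymes to 0.79 for the oxygen and haem responsive genes.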

How the data were processed

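Total RNA was extracted with TRIzol and libraries were made with standard Illumina procedures, per the labels' protocols. The sources used here do not name the aligner, read counter, annotation, strandedness or test. The deposited signal per strain is named a read count, per the file headers, and its values show it to be the mean of 2 libraries' read counts, each divided by a size factor. For each feature the authors also deposited a log2 fold change with its p-value, raw and adjusted. These are the main result, called at an adjusted p below 0.05.

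Both size factors of a strain were fitted from the means, and every pair of whole reads within 0.55 last-digit units of a mean was kept. The pair was unique for 95.6% of features in the deletion strain and 98.2% in the parent, and for all 10 enzymes. Values per library are these reads divided by the size factor. limma 3.58.1 in R 4.3.3 was fitted to log2(value + 1) of the 4 libraries (moderated test, intensity trend, 2-sided, Benjamini-Hochberg adjustment, mean of at least 1) as an alternative that shares its libraries with the authors' test. No exact permutation test was run, since with 2 libraries per strain its smallest p is 0.333. The series calls the libraries biological replicates without saying whether they came from separate cultures, so p-values measure only how these libraries of a strain vary.

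The enzymes, the lists and the motifs were chosen with earlier results of these data known. All 10 enzymes are named, and of other lists the genes that passed and the largest that did not. UPC2, MOT3, HAP1, SUT2, IDI1, NCP1, ERG9, ERG13, ANB1, CYC1, OLE1 and COX5A were added after their values were seen. Lengths and promoter windows come from R64, which has no gene overlapping any of the 10.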

Additional observations from a re-analysis of the deposited data

How the results depend on the processing

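The authors' table called 4 of the 10 enzymes lower at an adjusted p below 0.05; at 0.01 it called 2 (ERG1 and ERG11) and 793 of the 1296 features called in all. With at least 2-fold it called 3 enzymes. limma called 6 of the 10 lower; it called between 4 and 6 lower with voom, pseudocounts of 0.5 and 5, no filter, a minimum mean of 10 and either other scaling, and 1, with 718 features in all, without the intensity trend. Scaling by recovered totals, which moved the median of all features to 0.13 and gave 18.2% called higher against 11.9% lower, called 1 enzyme higher, HMG2 (log2 fold change 0.62). When each library was left out in turn, limma called between 0 and 4 of the 10 lower, 0 higher, and between 0 and 1371 features in all. The 0 came when either deletion library was left out, A or B. Without parental library B 2 enzymes and 834 features were called. The lone library is then assumed to vary like the other strain's. The fold changes of ERG1, ERG2, ERG11, ERG25, ERG3, ERG5, HMG1 and HMG2 kept their sign in all 13 limma settings; ERG1 ranged from -1.55 to -0.91 and ERG25 from -0.88 to -0.67. With 1 library left out, ERG6 ranged from -0.051 to 0.34, reversed without deletion library A, and ERG24 from -0.054 to 0.42, reversed without parental library A. No paired analysis was possible because the recovered libraries do not carry the replicate numbers of the labels, so which libraries would pair is not known. The precision is limited by 2 libraries per strain and by depth, the lowest enzyme count being 114 reads.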
